A study of Mus musculus with 24 samples.

Results

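The imprinted gene Mest and 5 genes of its chromosome 6 neighbourhood, Copg2, Cep41 (formerly Tsga14), Klf14, Tsga13 and Cpa4, were followed across 24 arrays of undifferentiated mouse embryonic stem (ES) cells of strain 129/Sv. Mest was chosen by its values in the Hdh knock-out against the controls, so that difference is given as a description without a test. The 5 neighbours were listed as genes near Mest, with earlier results of these data known. They are not simply the nearest, as Cpa1 and Cpa5 lie closer in gene order than Cpa4. Hdh, now Htt, is the mouse gene for huntingtin, and its CAG repeat encodes a run of glutamines. The platform annotation gives these 6 of the 18193 genes with a single-gene probe set 9 probe sets among 45037: 4 for Cep41 and 1 for each of the others. Of the 9, 4 passed the filter for testing, which asks that 3 or more arrays reach log2 5: those of Mest and Copg2 and 2 of Cep41.

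The 6 control samples carry 7 repeats on each Hdh allele (7/7), and the 6 knock-out samples are labelled null. Each knock-in line has 3 samples with 1 allele of 7 repeats and 1 longer allele: 16 repeats in Q20, 45 in Q50 (43 in Q50 replicate 3), 85 in Q91 and 111 in Q111. All groups share the strain and the undifferentiated state. The labels call the samples biological replicates but give no clone, passage or culture, so a knock-out or a repeat length cannot be told apart from the clone that carries it. One field of the labels, the description, has the controls and the knock-out the other way round from the titles and genotypes, which are followed here. The Htt probe set 1425969_a_at was lower in the samples labelled knock-out (7.21 ± 0.27 against 8.01 ± 0.29, SD, n = 6 each, limma adjusted p = 0.00195), while 1435539_at (-0.30, adjusted p = 0.0540) and 1456667_at (0.26, adjusted p = 0.211) did not pass the threshold of 0.05. All 15 ES cell markers lay above log2 5 in every group, and fibroblast markers, which would show feeder cells, did not read alike: Dcn, Lum and Postn had group means between 2.19 and 2.99, while Fn1 and Sparc lay above log2 10 in every group. The collagen gene Col1a1 averaged 3.73 in the controls and 7.98, 7.48 and 8.40 in Q20, Q91 and Q111. It passed the filter only through knock-in arrays, where it is high, so these means are given as a description.

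Mest (mesoderm-specific transcript, also Peg1) encodes a membrane protein of the alpha/beta hydrolase fold. It is expressed from the paternal allele, and the maternal allele is methylated over the main promoter. In imprinted clusters such a methylated region can set the expression of several genes at once, which is why neighbours are of interest when 1 gene of a cluster is lost. Copg2, a coatomer subunit gene of vesicle transport, lies next to Mest and is transcribed towards it, and long Mest transcripts that run into Copg2 are known in neural tissue. Klf14 is a maternally expressed, intronless gene for a Krüppel-like transcription factor. Cep41 encodes a centrosome and cilium protein, Tsga13 is a testis-specific gene, and Cpa4 encodes a carboxypeptidase.

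RefSeq windows of 300 bases, 250 before to 50 after a transcript start in assembly GRCm38.p6, were matched for 5 of the 6 genes. Klf14 had no entry. The 4 windows of the genes with a probe set that passed the filter are shown 5′ to 3′ on the strand of the gene, with CG pairs, the sites at which mouse promoters carry methylation, in capitals. They are shown so that the CG content of the imprinted gene can be set beside that of its neighbours. No methylation was measured.
Mest CG-rich start, chr6:30737800-30738099, plus strand: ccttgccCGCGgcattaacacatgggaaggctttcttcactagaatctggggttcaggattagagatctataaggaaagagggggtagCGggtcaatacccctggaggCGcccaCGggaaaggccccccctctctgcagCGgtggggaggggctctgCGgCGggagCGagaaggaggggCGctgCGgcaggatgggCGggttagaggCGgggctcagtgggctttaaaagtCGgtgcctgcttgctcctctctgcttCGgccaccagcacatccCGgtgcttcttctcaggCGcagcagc
Mest upstream start, chr6:30733256-30733555, plus strand: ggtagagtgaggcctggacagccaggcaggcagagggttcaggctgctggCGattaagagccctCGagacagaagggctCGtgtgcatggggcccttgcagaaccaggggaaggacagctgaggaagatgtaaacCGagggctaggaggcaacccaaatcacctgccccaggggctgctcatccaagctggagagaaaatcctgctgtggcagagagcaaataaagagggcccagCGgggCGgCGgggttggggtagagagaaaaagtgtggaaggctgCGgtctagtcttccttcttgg
Copg2, chr6:30896745-30897044, minus strand: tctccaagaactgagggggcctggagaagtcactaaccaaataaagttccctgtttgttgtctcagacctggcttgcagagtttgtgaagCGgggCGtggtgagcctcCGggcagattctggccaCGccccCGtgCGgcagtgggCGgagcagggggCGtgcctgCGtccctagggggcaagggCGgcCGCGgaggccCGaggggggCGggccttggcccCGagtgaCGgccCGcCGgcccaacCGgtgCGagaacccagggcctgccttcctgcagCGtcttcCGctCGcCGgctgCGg
Cep41, chr6:30693700-30693999, minus strand: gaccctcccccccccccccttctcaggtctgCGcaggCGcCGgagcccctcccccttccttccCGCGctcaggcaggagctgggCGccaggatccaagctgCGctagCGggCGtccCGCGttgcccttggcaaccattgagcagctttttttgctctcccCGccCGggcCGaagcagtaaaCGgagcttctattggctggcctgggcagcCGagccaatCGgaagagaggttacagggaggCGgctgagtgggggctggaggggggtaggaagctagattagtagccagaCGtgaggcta

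The CG-rich Mest window held 17 CG pairs and the upstream one 8, against a median of 7 over all 32851 windows of the table. Copg2 held 25 and Cep41 19. Of all windows, 31.4% had at least as many CG pairs as the CG-rich Mest window and 18.4% as many as that of Copg2. Tsga13 and Cpa4 had 2 and 3 CG pairs. The motif TGCCGC, the core bound by the imprint-maintaining zinc finger protein ZFP57 when methylated, was searched on both strands. It occurred 2 times in the CG-rich Mest window, 1 time in that of Copg2 and 0 times in the other windows of these genes, apart from another Mest entry that overlaps it. Of all windows, 11.6% held the motif at least 1 time and 1.5% at least 2 times. These matches are a description of the letters only.

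Mest was among the higher signals of the control arrays and at a middle or lower rank in each knock-out array. Its probe set 1423294_at read 11.49, 11.49, 11.43, 10.86, 10.67 and 10.72 (log2) in control replicates 1 to 6. In the knock-out it read 3.16, 2.87, 2.83, 3.73, 3.32 and 3.71. The 2 groups did not overlap, and no knock-out array reached log2 5. The group means were 11.11 ± 0.40 and 3.27 ± 0.39 (SD, n = 6 each), a difference of -7.84 (SE 0.27) on the log2 scale. Within the arrays, the Mest value stood at percentiles 91.8 to 94.9 of all probe sets in the controls and at percentiles 35.3 to 53.2 in the knock-out. Values this low are near the background of the arrays, so the size is also given as a bound: the control mean lay 6.11 log2 units, or 69.0-fold, above the filter level that no knock-out array reached.

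The loss of Mest signal separated the knock-out from every other array of the series. The lowest of the 18 arrays of the other groups was 10.67 and the highest knock-out array 3.73, a gap of 6.94. Among the 17980 probe sets tested, this was the largest gap of that kind, followed by 2.46 for Pla2g1b, which encodes a secreted phospholipase, and 2.33 for Lncenc1, a long noncoding RNA of ES cells. A gap above 1 was found for 18 probe sets, Mest included. As the rule that chose Mest used this contrast, the ranks describe it and test nothing.

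Mest values also differed between replicates 1 to 3 and 4 to 6, in opposite directions in the 2 groups. Control replicates 1 to 3 averaged 11.47 and replicates 4 to 6 averaged 10.75, and the 2 sets did not overlap. In the knock-out, replicates 1 to 3 averaged 2.95 and replicates 4 to 6 averaged 3.59, again without overlap. Only 3.24% of the tested probe sets shifted more between these sets in the controls, and 3.29% in the knock-out. The labels name no batch for these replicate numbers. Taken within each set, the difference of knock-out from control was -8.52 for replicates 1 to 3 and -7.16 for replicates 4 to 6.

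**Figure D1:**
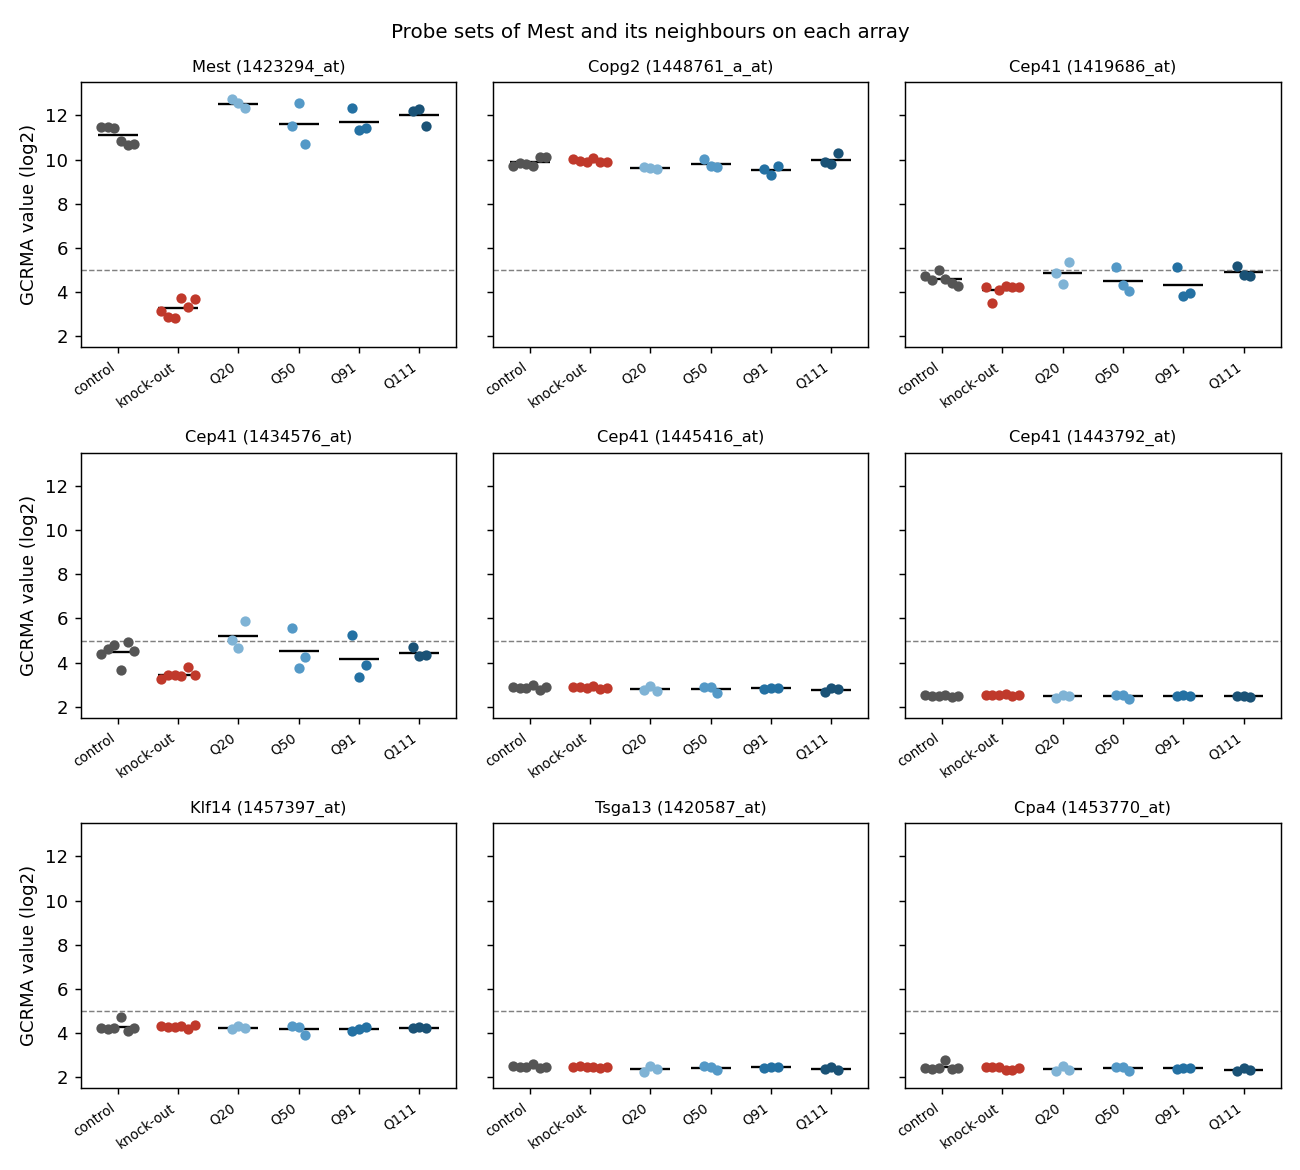
GCRMA value (log2, vertical axis) of the 9 probe sets of Mest and its 5 neighbours on each of the 24 arrays, by group (horizontal axis), with replicates in order from left to right. Horizontal bars are group means and the dashed line is the filter level of 5. The Mest knock-out values lie between 2.83 and 3.73, below all other Mest values, while the Copg2 values lie between 9.30 and 10.31 in all groups.

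Copg2, the gene next to Mest, read close to its control level in the knock-out. Its probe set 1448761_a_at read 9.73, 9.84, 9.79, 9.70, 10.11 and 10.14 in the controls. The knock-out arrays read 10.01, 9.92, 9.89, 10.06, 9.89 and 9.89, inside the control range. The means were 9.88 ± 0.19 and 9.94 ± 0.07, and the difference of 0.06 (SE 0.10) had a 95% confidence interval of -0.15 to 0.27 (limma adjusted p = 0.772). A fall of the size seen for Mest lies far outside that interval. Its close paralogue Copg1, which encodes the other gamma subunit of the coatomer, gave 11.23 and 11.16 (difference -0.06, adjusted p = 0.617). Of the 8 tested genes of a list of other coatomer subunits and the regulator Arf1, 0 were higher and 1 was lower in the knock-out. This was Copz1, by -0.27 (adjusted p = 0.0144). The count is near the 16.3% of all genes called there and so no result about the list. The list's median was -0.04 and that of all 9511 genes tested was -0.02.

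Cep41, the neighbour on the other side, gave low signals in all groups, and its probe sets did not give the same call. Probe set 1434576_at read 4.37, 4.61, 4.80, 3.68, 4.95 and 4.53 in the controls. It read 3.28, 3.43, 3.43, 3.40, 3.81 and 3.43 in the knock-out. The groups overlapped through control 4 and knock-out 5. The means of 4.49 ± 0.44 and 3.46 ± 0.18 differed by -1.03 (SE 0.31, limma adjusted p = 0.0283). Both means lie below the filter level, and this probe set was tested only because 4 knock-in arrays reached log2 5, while 1419686_at passed through 1 control and 4 knock-in arrays. Probe set 1419686_at read 4.74, 4.55, 5.02, 4.59, 4.43 and 4.28 in the controls and 4.23, 3.52, 4.08, 4.27, 4.22 and 4.24 in the knock-out. Here the highest knock-out array read 4.27 and the lowest control 4.28. The difference of -0.51 (SE 0.23) did not pass the threshold (adjusted p = 0.137). The 2 other Cep41 probe sets lay at 2.77 to 3.00 (1445416_at) and 2.46 to 2.58 (1443792_at) in both groups.

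The call of 1434576_at did not hold across replicates. Leaving out control 2, 3 or 5 or knock-out 1, 4 or 6, one at a time, gave differences between -0.93 and -1.02 with adjusted p of 0.0502 to 0.0630. Within replicates 1 to 3 the difference was -1.21 (adjusted p = 0.163) and within replicates 4 to 6 it was -0.84 (adjusted p = 0.369). Each of these sets has 3 arrays per group, and the calls over all probe sets also fell there. Without the filter the adjusted p was 0.0725.

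Klf14, Tsga13 and Cpa4 stayed below the filter level on all 24 arrays and were not tested in the main comparison. Klf14 averaged 4.29 ± 0.22 in the controls and 4.29 ± 0.06 in the knock-out, with 4.10 to 4.72 and 4.18 to 4.36 as the ranges. Tsga13 averaged 2.48 ± 0.06 and 2.47 ± 0.03. Cpa4 averaged 2.47 ± 0.17 and 2.41 ± 0.06. No array of any group reached log2 5 for these 3 genes. Without the filter, the differences were 0.01, -0.01 and -0.05, none past the threshold (adjusted p = 1 for each).

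Counting the neighbours, 1 of 3 tested probe sets passed the threshold in the knock-out, the Cep41 probe set above, beside 14.6% of all tested probe sets. Of the 8 neighbour probe sets, 5 could not be tested.

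The same question was put to the 10 protein-coding genes on each side of Mest in RefSeq order, Copg2, Cep41, Klf14, Tsga13 and Cpa4 included. Of these 20 genes, 10 had a probe set that passed the filter. In the knock-out 1 of the 10 was called, beside 16.3% of all genes: Chchd3, which encodes a protein of the mitochondrial cristae scaffold, lower by -0.42 (SE 0.12, adjusted p = 0.0243). The median of the 10 was -0.20, beside -0.02 for all genes, with values from -0.51 (Cep41) to 0.06 (Copg2). Of the 10, 8 were below 0, beside 53.1% of all genes. Whether these 10 genes lean lower as a set was not tested. Over all probe sets of these genes, 20 were tested and 3 were called, all lower, near the 14.6% of all tested probe sets called. Among them was 1428771_at of Klhdc10 (-0.75, adjusted p = 0.0490), whose other tested probe set, 1433997_at, gave -0.20 (adjusted p = 0.195). For Chchd3, 1431241_at gave -0.09 (adjusted p = 0.756). Over the 445 tested genes of chromosome 6, the median difference was -0.02, the median on single knock-out arrays ran from -0.03 to 0.01 relative to the control mean, and 19.3% were called.

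**Figure D2:**
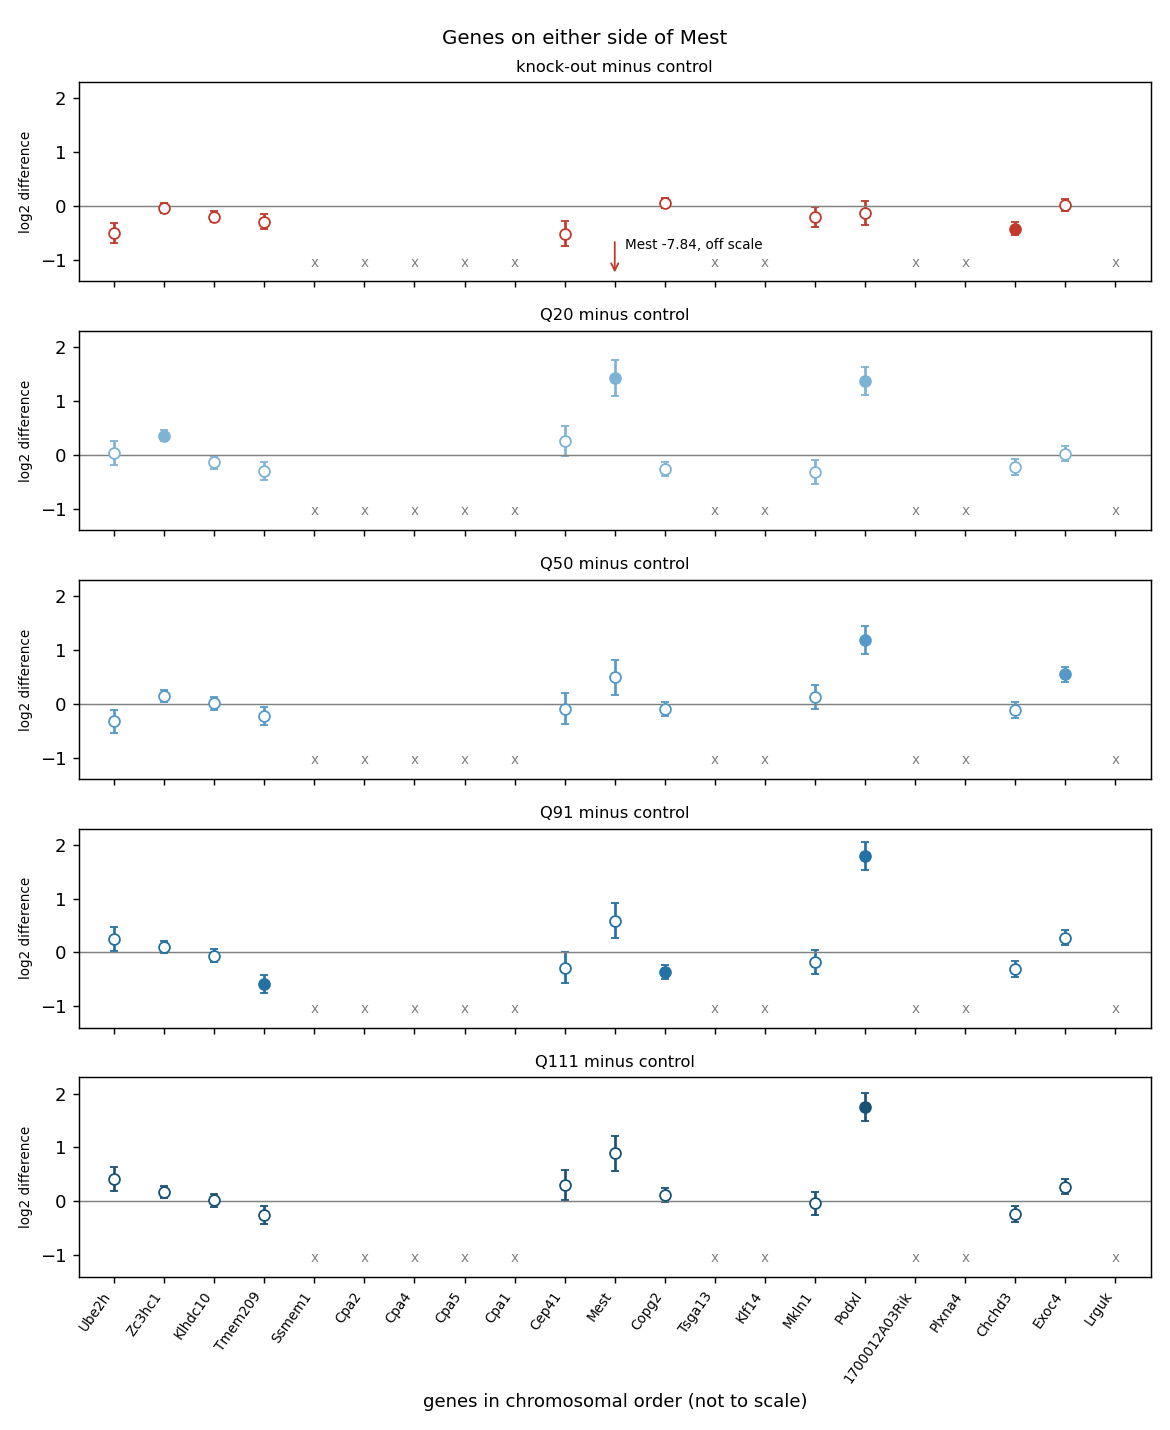
Difference from the control mean (log2, vertical axis) of Mest and the 10 genes on each side in chromosomal order (horizontal axis), 1 panel for each group. Points are limma estimates with their SE, filled where the adjusted p was under 0.05, and an x marks a gene without a tested probe set. In the knock-out Mest is off scale at -7.84 and Copg2 lies at 0.06, and Podxl is above 1 in all 4 knock-in lines.

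The knock-in contrasts had no part in choosing Mest, and each shares the same 6 control arrays. Mest was highest in Q20, with 12.74, 12.56 and 12.33 in replicates 1 to 3. All 3 values lay above all controls, and the difference of 1.43 (SE 0.33, 95% confidence interval 0.75 to 2.11, 2.69-fold) passed the threshold (limma adjusted p = 0.0033, beside 25.2% of probe sets called in this line). In Q111 the values were 12.20, 12.30 and 11.51, also all above the controls. The difference there was 0.89 (SE 0.33, interval 0.21 to 1.57) with an adjusted p of 0.0501, just outside the threshold, and 25.7% of probe sets were called. Leaving out control 1, control 2 or Q111 replicate 3 gave 0.97, 0.97 and 1.14 with adjusted p of 0.0458, 0.0468 and 0.0308. Leaving out Q111 replicate 1 or 2 gave 0.79 and 0.74 with adjusted p of 0.172 and 0.191.

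In Q91 and Q50 the Mest values overlapped the controls. Q91 read 12.33, 11.34 and 11.43, a difference of 0.59 (SE 0.33, interval -0.09 to 1.27, adjusted p = 0.216, 22.2% of probe sets called). Q50 read 11.51, 12.57 and 10.73, the widest spread of any group (SD 0.92). Its difference was 0.49 (SE 0.33, interval -0.19 to 1.18, adjusted p = 0.366, with 8.00% of probe sets called). Whether the lines differ from each other was tested separately: the moderated F over the 12 knock-in arrays was 1.94 (adjusted p = 0.532, 0.167% of probe sets called), and the slope on the repeat number was -0.45 per 100 repeats (SE 0.46, interval -1.44 to 0.55, adjusted p = 0.985, 0.0445% called).

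In order of its mean, Mest ran from Q20 (12.54 ± 0.21) through Q111 (12 ± 0.43), Q91 (11.70 ± 0.55) and Q50 (11.60 ± 0.92, SD, n = 3 each) to the controls and the knock-out. Q20 and Q111 were separated by a step of 12.30 to 12.33 between their nearest arrays. Q111 and Q91, Q91 and Q50, and Q50 and the controls overlapped. Of the neighbours in this order, the controls and the knock-out were the furthest apart.

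Of the 3 tested probe sets of the neighbours, 0 passed the threshold in Q20, Q50 and Q111, where 25.2%, 8.00% and 25.7% of all tested probe sets were called, and 0 in the repeat trend (0.0445%). In Q91, with 22.2% called, 1 of the 3 passed. It was Copg2, with 9.58, 9.30 and 9.70 against a lowest control of 9.70. Its difference was -0.36 (SE 0.13, interval -0.62 to -0.10, adjusted p = 0.0451). That call was lost without control 2, 3, 5 or 6 or without Q91 replicate 1 or 2, with differences from -0.24 to -0.38 and adjusted p of 0.0509 to 0.278. In Q20, Copg2 read 9.68, 9.60 and 9.58, beside the same lowest control of 9.70, with a difference of -0.27 (adjusted p = 0.129). With quantile normalization or median centring that difference became -0.35 and -0.37 and passed (adjusted p = 0.0345 and 0.0293). Copg2 in Q50 (10.01, 9.69 and 9.68) and Q111 (9.89, 9.79 and 10.31) overlapped the controls.

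The Cep41 probe set 1434576_at read 5.03, 4.65 and 5.90 in Q20, 5.56, 3.75 and 4.24 in Q50, 5.26, 3.37 and 3.90 in Q91 and 4.69, 4.32 and 4.34 in Q111. Its SD was 0.64, 0.94, 0.97 and 0.21 in these lines. Each of these groups overlapped the controls, and the largest difference was 0.70 in Q20 (SE 0.37, adjusted p = 0.180). The other tested Cep41 probe set differed from the controls by -0.28 to 0.30, with adjusted p from 0.467 to 0.876. Klf14 lay at 3.90 to 4.31, Tsga13 at 2.25 to 2.51 and Cpa4 at 2.27 to 2.50 over the 12 knock-in arrays.

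Among the 10 tested flanking genes, Podxl was called in all 4 lines. Podxl encodes podocalyxin, a sialomucin of the cell surface. Its mean was 7.68 ± 0.46 in the controls and 7.55 ± 0.37 in the knock-out (-0.13, adjusted p = 0.747). The knock-in means were 9.05, 8.87, 9.48 and 9.44 in Q20, Q50, Q91 and Q111. Differences were 1.37 (adjusted p = 8.79e-04), 1.19 (0.00907), 1.80 (7.02e-05) and 1.76 (8.06e-05), 4 contrasts that share the control arrays. The other calls were Zc3hc1 in Q20 (0.36, adjusted p = 0.0184), the exocyst gene Exoc4 in Q50 (0.55, 0.0189) and the nuclear envelope gene Tmem209 in Q91 (-0.58, 0.0161), where Copg2 was also called. That makes 2 of 10 in Q20, 2 in Q50, 3 in Q91 and 1 in Q111, beside 26.7%, 7.51%, 24.6% and 27.5% of all genes.

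Other paternally expressed imprinted genes were set beside Mest, from a list of 29 genes without Mest of which 19 were tested. In the knock-out 0 were higher and 3 of the 19 were lower, near the 16.3% of all genes called there and so no result about the list: Sfmbt2, a Polycomb-group gene, by -3.26 (adjusted p = 1.41e-04), the translation-factor gene Mcts2 by -1.15 (8.75e-04) and the zinc finger gene Peg3 by -1.0 (0.00238). Peg10, a retrotransposon-derived gene, differed by -1.68 (SE 0.61) without passing (0.0669). The median of the 19 was -0.36. Their range, -3.26 to 0.31, did not reach the value of Mest. Of 12 tested maternally expressed genes, 2 were higher, Gnas by 1.11 (3.09e-04) and Ppp1r9a by 0.85 (0.0124), and 0 were lower, with a median of 0.01, again near the share of all genes.

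Of 15 tested genes from a list of DNA methylation and imprint maintenance, 0 were higher and 4 were lower in the knock-out, beside 16.3% of all genes called, with a median of -0.21. These were Dnmt3l, the cofactor of the de novo methyltransferases (-1.66, adjusted p = 3.67e-08), the methyltransferase genes Dnmt3b (-1.18, 1.95e-04) and Dnmt3a (-1.44, 0.00358), and Trim28, which recruits silencing complexes (-0.25, 0.0276). Dnmt1, the maintenance methyltransferase, differed by 0.03 (0.856) and Zfp57 by -0.52 (0.317). These lists were drawn up with results of the same arrays known and are not independent evidence.

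**Figure D3:**
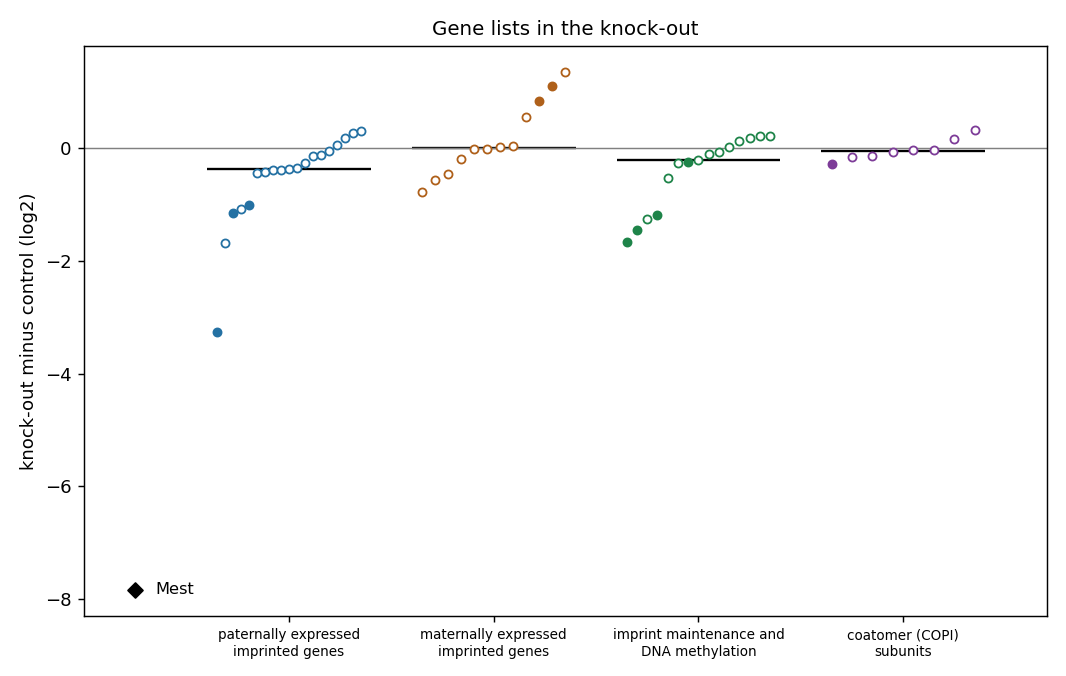
Difference of knock-out from control (log2, vertical axis) for the tested genes of 4 lists (horizontal axis), sorted within each list, with the Mest value as a diamond. Points are genes, filled where the adjusted p was under 0.05, and bars are list medians, from -0.36 to 0.01. Mest at -7.84 lies below all of them, the next being Sfmbt2 at -3.26.

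In the knock-in lines 13 of the 19 paternally expressed genes rose in Q20, 3 in Q50, 10 in Q91 and 12 in Q111, while Mest itself passed the threshold only in Q20. Of all genes tested, 26.7%, 7.51%, 24.6% and 27.5% were called in these lines in either direction. In Q20 0 of the 19 were lower (median 1.16, all genes 0.01), and the smallest p-values were those of Peg3 (1.87, adjusted p = 3.61e-05), the translation regulator Impact (1.34, 9.60e-05), the proteolipid gene Nnat (6.34, 1.10e-04) and the Notch-ligand relative Dlk1 (1.84, 1.72e-04). In Q111 and Q91 0 were lower (medians 1.13 and 0.92). In Q50 0 were lower (median 0.23), and the 3 that rose were the amino acid transporter gene Slc38a4 (0.85, 0.00178), the noncoding RNA Kcnq1ot1 (1.02, 0.00959) and Impact (0.89, 0.0102). Of the 19, 3 (Dlk1, Sgce and Nnat) passed the filter only through knock-in arrays, since fewer than 3 control and knock-out arrays reached log2 5, and they make up 3, 0, 2 and 2 of the genes that rose in Q20, Q50, Q91 and Q111. Such genes had to be high in a knock-in line to be tested, so the counts and medians describe the tested genes and are no support for a direction of the list. Mest had differences of 1.43, 0.89, 0.59 and 0.49 where the list had medians of 1.16, 1.13, 0.92 and 0.23. The 4 medians share the control arrays. Of the 12 maternally expressed genes, 5 were higher and 2 lower in Q20, 2 and 0 in Q50, 5 and 0 in Q91 and 4 and 1 in Q111, to be read against the same shares of all genes. Of these 12, Ascl2 passed the filter only through knock-in arrays.

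**Figure D4:**
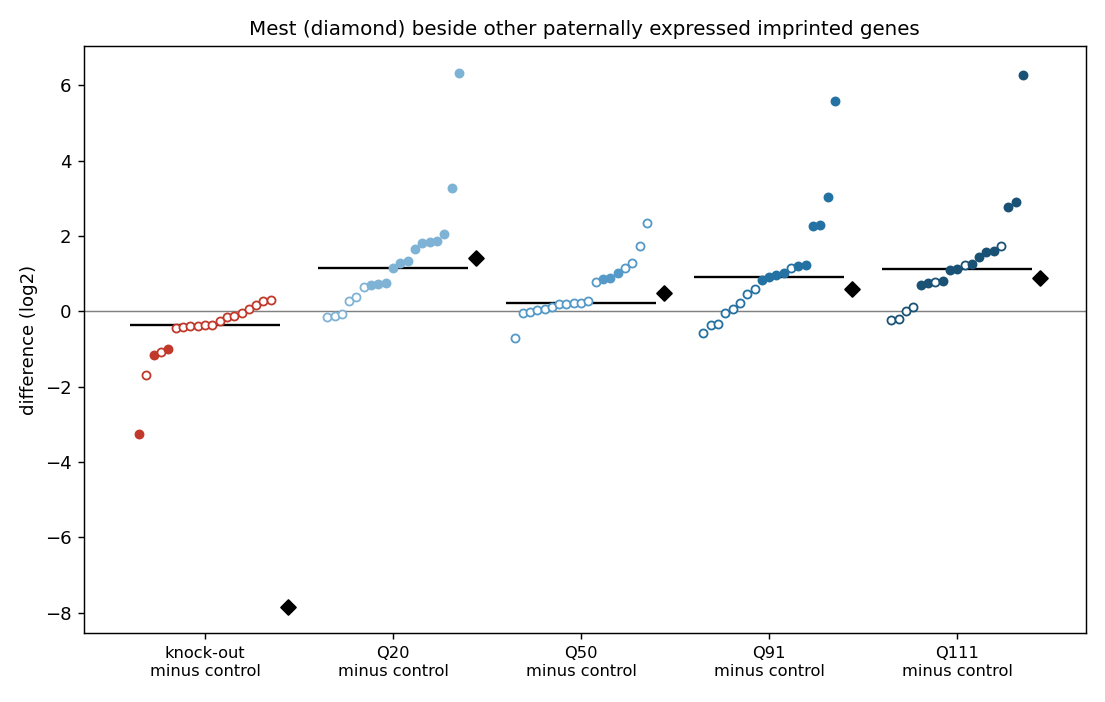
Difference from control (log2, vertical axis) of 19 tested paternally expressed imprinted genes in each group (horizontal axis), sorted within a group, with Mest as a black diamond. Points are genes, filled where the adjusted p was under 0.05, and bars are medians. Mest lies below every gene of the list in the knock-out and within the range of the list in each knock-in line.

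Markers of other cells moved with these groups and are given as measured. The mean of the 19 fibroblast markers with a probe set ran from 4.03 to 4.27 in the controls, 3.86 to 4.07 in the knock-out and, across the lines, from 4.30 to 4.83 (Q20), 3.85 to 4.14 (Q50), 4.24 to 4.84 (Q91) and 4.52 to 4.81 (Q111). In the knock-out 2 of 8 tested were lower, beside 16.3% of all genes called: Thy1 (-2.66, adjusted p = 0.00154) and Sparc (-1.20, 4.25e-04). In Q20, 4 of 8 were higher, in Q50 0, in Q91 3 and in Q111 5, beside the shares of all genes given above. Col1a1, the largest, differed by 4.25, 3.74 and 4.67 in Q20, Q91 and Q111. Sparc was higher by 1.32, 1.0 and 1.08 in the same lines, and the gelatinase gene Mmp2 by 1.81 in Q20 and 2.37 in Q111 (adjusted p = 0.00743 and 8.86e-04). Col1a1, Col1a2 and Col5a2 passed the filter only through knock-in arrays and make up 2, 2 and 3 of these calls in Q20, Q91 and Q111, so the counts are no independent support. Dcn, Lum, Postn, Fap and Col6a1 had means below 3.00 in every group and were not tested. The mean of the 15 ES cell markers ran from 13.02 to 13.12 in the controls and 13.03 to 13.25 in the knock-out. It was lower in Q20 (12.12 to 12.66), Q50 (12.51 to 12.92), Q91 (12.10 to 12.38) and Q111 (12.20 to 12.82). In these lines 8, 3, 9 and 8 of the 15 were lower, beside 26.7%, 7.51%, 24.6% and 27.5% of all genes called. In the lines 1 was higher, Dppa4 in Q50 (0.59, adjusted p = 0.0437). In the knock-out 2 of the 15 were higher, Klf4 (0.58, adjusted p = 0.00928) and Tdgf1 (0.29, 0.0182), and 0 lower, beside 16.3% of all genes called. The markers did not move alike in the lines. Pou5f1, Dppa5a, Sall4 and Fgf4 passed in no group. The largest falls in Q20, Q91 and Q111 were those of Tbx3 (-2.55, -2.51 and -1.62) and Tfcp2l1 (-1.93, -1.72 and -1.96). Trophoblast markers averaged 4.92 to 5.12 in the controls, 4.69 to 5.06 in the knock-out and 5.07 to 6.71 across the knock-in arrays. In the lines this list was carried by the keratins: Krt8 rose by 4.26, 2.62, 4.99 and 4.87 and Krt18 by 4.24, 2.48, 4.86 and 4.79 in Q20, Q50, Q91 and Q111 (adjusted p = 5.58e-04, 0.0421, 1.27e-04 and 1.43e-04 for Krt8). Keratins 8 and 18 are those of simple epithelia in general. The trophoblast regulator genes did not read alike. Cdx2, Elf5, Hand1 and Gata3 had means between 2.07 and 3.16 in every group, while Tfap2c had means between 10.57 and 11.36. Ascl2 lay between 4.17 and 5.42, and neither Tfap2c nor Ascl2 passed the threshold in any group. Eomes differed by 1.06, 0.44, 1.14 and 1.62 in Q20, Q50, Q91 and Q111, passing in Q20, Q91 and Q111. Primitive endoderm markers averaged 5.02 to 5.43 in the controls, 4.82 to 5.04 in the knock-out and 5.26 to 5.89 across the knock-in arrays. Of 6 tested, 2 were lower in the knock-out, beside 16.3% of all genes called: Lamb1 (-0.61, adjusted p = 0.0176) and Sparc, which is also on the fibroblast list. In Q20, Q50, Q91 and Q111, 4, 1, 4 and 4 of the 6 were higher and 0 lower, beside the shares of all genes given above. The genes that rose were Lamb1, Col4a1, Col4a2 and Sparc, with Lamb1 alone in Q50. Dab2 and Lama1 passed the threshold in no group. Gata4, Gata6, Sox17, Sox7, Foxa2, Pdgfra, Afp and Ttr had means between 1.68 and 3.79 in every group and were not tested. The list therefore did not read alike. Mesoderm markers averaged 4.16 to 4.41 in the controls, 4.48 to 4.57 in the knock-out and 4.04 to 4.38 across the knock-in arrays. Mixl1, Mesp1, Tbx6, Kdr, Hand1, Snai1 and Meox1 were not tested and had means between 1.70 and 2.81 in both the controls and the knock-out. Of 4 tested, 1 was higher in the knock-out, Tcf15 (1.0, adjusted p = 0.0046), beside 16.3% of all genes called. Bmp4 (1.16, adjusted p = 0.0539), Eomes (0.45, 0.253) and Foxf1 (-0.02, 0.846) did not pass. In Q20, Q50, Q91 and Q111, 1, 0, 1 and 1 of the 4 were higher and 2, 0, 1 and 2 lower, beside the shares of all genes given above. Neuroectoderm markers averaged 4.89 to 5.12 in the controls, 4.83 to 5.07 in the knock-out and 4.80 to 5.67 across the knock-in arrays. Of 6 tested, 1 was lower in the knock-out, Tubb3 (-1.16, adjusted p = 7.46e-04), beside 16.3% of all genes called. In the lines 2, 0, 2 and 3 of the 6 were higher and 1, 0, 1 and 1 lower, beside the same shares of all genes. Of the 6, Pax6 and Nes passed the filter only through knock-in arrays and make up 1, 0, 1 and 1 of those higher. Their part in the Mest values was not tested, and fewer cells of a type and less RNA per cell cannot be told apart in bulk RNA.

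By Pearson correlation, the genes that followed Mest most closely lay on other chromosomes. Over all 24 arrays the highest Pearson correlations among 9511 genes were those of Lncenc1 (0.972), Fam118a (0.955), Pla2g1b (0.948), Mtfmt (0.942) and Stmn2 (0.941), on chromosomes 13, 15, 5, 9 and 3. Mtfmt encodes the mitochondrial methionyl-tRNA formyltransferase and Stmn2 a stathmin that binds tubulin. These coefficients rest on the gap between the knock-out and the other arrays, and Spearman's rho was 0.73, 0.782, 0.426, 0.729 and 0.652. Over the 18 arrays without the knock-out they were Slc6a15 (0.88), Ccdc71l (0.877), Hnrnph1 (0.863), Kctd12b (0.857) and Srsf1 (0.85), none of them on chromosome 6, with rho of 0.886, 0.899, 0.866, 0.841 and 0.81. Slc6a15 encodes an amino acid transporter, and Hnrnph1 and Srsf1 encode splicing factors. By Pearson correlation Cep41, read by probe set 1419686_at, ranked 1339 over 24 arrays (0.567) and 1832 over 18 (0.437). Its rho was 0.702 and 0.509, and the value of 0.702 lies within the range of the 5 genes named first. The other tested Cep41 probe set, 1434576_at, was not correlated with Mest, as 1 probe set stood for each gene. Copg2 ranked 7338 (-0.364) and 7414 (-0.362), with rho of -0.516 and -0.346. The arrays share groups and normalization, so these values are a description.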

How the data were processed

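Total RNA was hybridised to 24 Affymetrix MG 430 2.0 arrays. The values used were the log2 expression values the authors deposited for 45101 probe sets, made with GCRMA per the submitters' processing notes. The sources used here give neither its version nor whether all arrays were normalized together. Leaving out 64 AFFX controls, 17980 probe sets that reached log2 5 on 3 or more arrays were tested. GEO's platform annotation named 34945 probe sets with 1 gene and 932 with several, and left 9160 unnamed. For gene counts the probe set with the highest mean stood for each of 9511 genes.

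All 24 arrays entered 1 limma fit (limma 3.58.1, R 4.3.3) with 1 mean for each group, which left 18 residual degrees of freedom. Each group was compared with the controls by two-sided moderated tests. The trend and the F-test used the 12 knock-in arrays, with 10 and 8 residual degrees of freedom. Benjamini-Hochberg adjustment ran over all tested probe sets. The scripts were tested on simulated data. Precision is limited by the number of arrays. The share of all probe sets whose groups do not overlap was not counted, so a lack of overlap is a description only. Gene order and start windows came from RefSeq (GRCm38.p6).

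The members and lists were chosen with earlier results of these data known. Genes named were all member probe sets, Htt, flanking genes past the threshold, up to 4 genes per list with the smallest p, and the 5 most correlated with Mest. Exceptions, such as Copg1, Dnmt1, Zfp57 and the probe sets that disagree, were named after their values were seen. Alternatives changed the normalization, filter, fit, replicate block and replicates.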

Additional observations from a re-analysis of the deposited data

Results flagged for a closer look

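For the controls and the knock-out, each probe set of Mest and its neighbours was examined for an array that stands apart from the other 5 of its group by Dixon's criterion, 18 combinations in all. Chance marks about 1 in 20 such groups, and 5 were marked. For Cep41, knock-out 2 read 3.52 on probe set 1419686_at, below the others at 4.08 to 4.27, and knock-out 5 read 3.81 on 1434576_at, above the others at 3.28 to 3.43. Control 4 was the high array for 3 genes that lie below the filter level throughout. It read 4.72 for Klf14 against 4.10 to 4.25, 2.59 for Tsga13 against 2.44 to 2.49 and 2.80 for Cpa4 against 2.36 to 2.44. Control 4 also had the highest median over all probe sets of the 24 arrays. Over the tested genes it went the other way, with a median deviation from the control mean of -0.14, the lowest of the 24. Whether either bears on the 3 values of control 4 was not tested. Neither Mest nor Copg2 had such an array.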

How the results depend on the processing

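The higher Mest level in Q20 passed the threshold under all 16 alternatives run, with differences of 1.32 to 1.54 and adjusted p of 0.0022 to 0.0252. The fall of Mest in the knock-out was -8.52 with replicates 1 to 3 alone and -7.16 with replicates 4 to 6 alone, and -7.93 to -7.75 without single arrays. In Q111 the Mest difference of 0.89 passed with a stricter filter (adjusted p = 0.0478), with only the 2 groups in the fit (0.0302) and with an intensity trend and robust prior (0.0442). Without single arrays it was 0.74 to 1.14. Of the 16 alternatives for Mest in Q111, 6 passed the threshold and 10 did not, with adjusted p from 0.0302 to 0.191. Among those that did not were no filter (0.109) and median centring (0.0783). In the other lines, the trend and the F-test the side of the threshold did not change. For Copg2 in the knock-out the difference stayed between -0.04 and 0.15 under 21 alternatives, none past the threshold.

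The number of neighbour probe sets called in the knock-out was 1, but 0 with no filter, with the stricter filter (which leaves Cep41 out), and with replicates 1 to 3 or 4 to 6 alone, 2 with only the 2 groups in the fit, and 0 to 1 without single arrays. In Q20 it was 1 with quantile normalization and 1 with median centring, in place of 0. In Q91 it was 0 in place of 1 with no filter, with only the 2 groups in the fit and with the replicate block, and 0 to 1 without single arrays. The causes were not tested.

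Deviations of same-numbered samples from the group means correlated between -0.409 and -0.26 for control and knock-out and between -0.105 and 0.132 for control and the lines. All 6 control and knock-out values were negative, so these same-numbered samples tended to deviate in opposite directions and not alike. The reason was not tested. The values for control and each line held both signs. Among the 6 pairs of lines, every correlation was positive in 2, Q20 with Q111 (0.39 to 0.464) and Q50 with Q91 (0.197 to 0.412), and the other 4 held both signs. With the block, the F-test among lines called 123 probe sets in place of 30 (Mest adjusted p = 0.345) and the trend 4 in place of 8 (Mest slope -0.45, 0.959). With the replicate number as a block, Copg2 in Q91 was -0.31 (adjusted p = 0.153), Mest in Q20 1.41 (0.0117) and Mest in Q111 0.87 (0.0919).

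Over all probe sets, the counts called moved by over 1.5 times as follows. Knock-out calls were 838 and 1049 with replicates 1 to 3 and 4 to 6 alone (2624 with all). Q20 fell to 2642 without replicate 1 (4539), Q91 to 2204 without replicate 2 (3988) and Q111 to 2989 without replicate 1 (4615). Q50 fell to 601 with 2 groups in the fit, 595 with the block and 739 without replicate 2 (1438). The trend ranged from 0 to 16 (8) and the F-test from 8 to 496 (30). Signal near background limits what can be said of Cep41, Klf14, Tsga13 and Cpa4.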
